A study of Homo sapiens with 6 samples.

Results

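The 7 genes described here encode the cyclin B1 and CDK1 pair that drives entry into mitosis and enzymes that act with it: CCNB1, CDK1, PLK1, BUB1, UBE2C, PBK and NEK2. They are 7 of 4604 genes with a symbol on the arrays, and were selected by symbol with their values already known: most had been picked for low ratios after RPS3 siRNA, or for lower ratios with RPS3 siRNA than with p65 siRNA. Those 2 contrasts are therefore given as descriptions without a test, and the tests below concern the p65 siRNA arrays alone, whose values also enter the difference, and the trend over time. Slopes over time were also known when the genes were chosen. All 7 genes had a value on every array and so were among the 3932 named genes and 7267 features tested. They were read by 21 probes.

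All arrays carried RNA of Jurkat cells, an established human T-cell leukaemia line. On each of 6 arrays, Cy5-labelled RNA from cells transfected with p65 siRNA (p65, a subunit of NF-kB, is the product of RELA) or RPS3 siRNA (against a protein of the small ribosomal subunit) was set against Cy3-labelled RNA from cells given nonspecific siRNA. Both RNAs of an array came from cells stimulated through the T-cell receptor by anti-CD3/CD28 (1 ug) over the same time, 1, 3 or 6 h, with 1 array per siRNA and time. Every group had thus been transfected and stimulated, and an unstimulated sample was not analysed here. The series asks about RPS3 as a component of NF-kB p65 complexes. Values are log2 ratios of siRNA over control, the likely direction given the dyes; a value of -1 is a halving and 0 is no difference.

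Cyclin B1 accumulates late in the cell cycle, binds the kinase CDK1 and switches it on at the start of mitosis. Polo-like kinase 1 (PLK1) helps activate the pair and builds the spindle, NEK2 separates centrosomes, BUB1 works in the spindle checkpoint at kinetochores, and PBK is a mitotic kinase also known as TOPK. UBE2C is the ubiquitin-conjugating enzyme of the anaphase-promoting complex, which marks cyclin B1 for destruction and so ends mitosis. Transcripts of these genes are known to peak in G2 and M phase, repressed earlier by the DREAM complex and switched on by B-MYB and FOXM1. Jurkat cells divide continuously, so they hold such transcripts without stimulation.

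Promoters of G2 and M genes are known for boxes bound by the factor NF-Y and for the cell cycle genes homology region, through which the DREAM and MuvB complexes act, so the promoters of the members are shown with those letters marked. The RefSeq table of the human assembly GRCh38.p14 held promoter windows, from 250 bases before the transcription start to 50 after, for 5 of the 7 genes, and 6 windows in all because CDK1 has 2 starts 147 bases apart. The letters searched, on both strands, were CCAAT for the NF-Y box (ATTGG when reversed), TTTGAA for the G form of the homology region (TTCAAA when reversed) and TTTAAA for its A form, which reads the same on both strands. No match overlapped another in the windows of the members. The 200 bases before the start are printed 5′ to 3′ with matches in capitals, for CCNB1 (chr5:69166950-69167149, plus strand), the upstream start of CDK1 (chr10:60778131-60778330, plus strand), PLK1 (chr16:23678689-23678888, plus strand), BUB1 (chr2:110678064-110678263, minus strand) and NEK2 (chr1:211675622-211675821, minus strand).
CCNB1: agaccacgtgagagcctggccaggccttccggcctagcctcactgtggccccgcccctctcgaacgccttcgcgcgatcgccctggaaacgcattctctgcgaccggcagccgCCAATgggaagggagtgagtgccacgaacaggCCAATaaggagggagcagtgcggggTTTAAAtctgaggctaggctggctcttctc
CDK1: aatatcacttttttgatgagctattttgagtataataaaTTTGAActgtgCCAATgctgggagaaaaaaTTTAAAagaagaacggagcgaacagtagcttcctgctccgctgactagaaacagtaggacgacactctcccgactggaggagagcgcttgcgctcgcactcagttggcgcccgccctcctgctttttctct
PLK1: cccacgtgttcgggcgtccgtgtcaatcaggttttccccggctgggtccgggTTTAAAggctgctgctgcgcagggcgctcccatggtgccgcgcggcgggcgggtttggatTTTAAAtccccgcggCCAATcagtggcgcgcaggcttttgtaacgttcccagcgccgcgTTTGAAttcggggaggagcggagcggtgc
BUB1: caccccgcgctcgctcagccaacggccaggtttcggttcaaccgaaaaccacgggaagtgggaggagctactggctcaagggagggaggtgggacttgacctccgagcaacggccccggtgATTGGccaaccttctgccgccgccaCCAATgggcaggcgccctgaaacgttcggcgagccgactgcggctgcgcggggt
NEK2: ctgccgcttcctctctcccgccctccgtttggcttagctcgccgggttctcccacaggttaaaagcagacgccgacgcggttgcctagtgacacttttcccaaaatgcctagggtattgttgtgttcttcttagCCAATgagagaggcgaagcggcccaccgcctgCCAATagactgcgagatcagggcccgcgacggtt

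Every one of the 6 windows of the members held CCAAT, against 34.6% of all 35116 windows in the table and 50.7% of 134 windows of other genes on the 4 G2 and M lists used below. CCNB1 and NEK2 each held it on the forward strand at a pair of positions, -87 and -55 in CCNB1 and -66 and -34 in NEK2, counted to its first base. BUB1 held it reversed at -79 and forward at -54. TTTGAA or TTTAAA stood in 4 of the 6 windows, against 24% of all windows and 41.8% of the 134 windows of other genes on those lists. In CCNB1 the match was TTTAAA at -30, and in PLK1 it was TTTGAA at -29 with TTTAAA at -148 and -88. The upstream start of CDK1 had TTTGAA at -161 and TTTAAA at -131 around a CCAAT at -150. The downstream start had reversed CCAAT at -78 and -46 and TTTGAA at -69 and -13, with a reversed TTTGAA at 10 bases past the start. The windows of BUB1 and NEK2 held neither form. These are matches of letters, and no binding was measured.

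**Figure D1:**
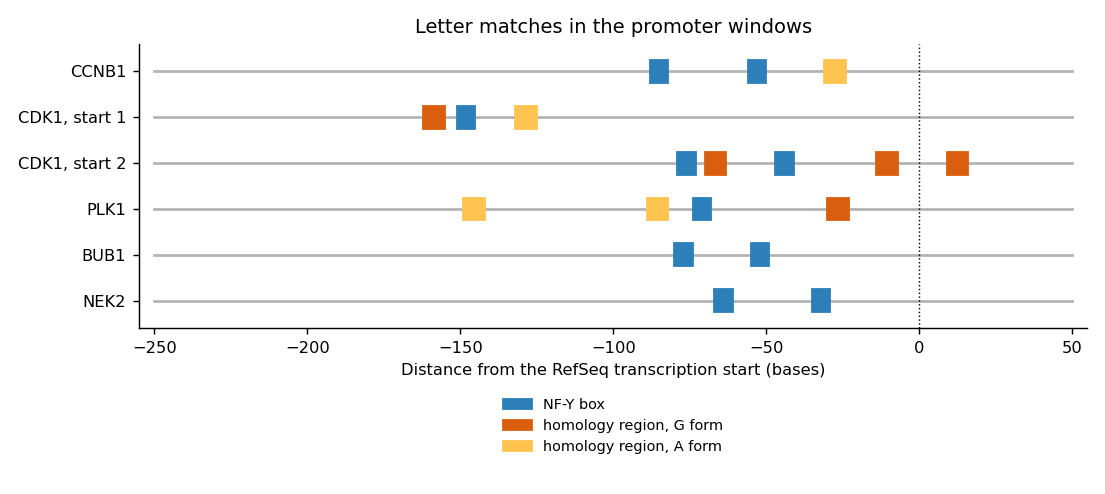
Positions of letter matches in the 6 promoter windows of 5 member genes, in bases from the RefSeq transcription start (dotted line); blue marks the NF-Y box, orange the G form and yellow the A form of the homology region. NF-Y boxes lie between -150 and -30 in every window, and BUB1 and NEK2 show no match to the homology region.

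After RPS3 siRNA, 6 of the 7 genes lay below the control on all 3 arrays, with CCNB1 lowest (mean log2 ratio -0.70 ± 0.32, SD, n = 3), and NEK2 alone had arrays on both sides of 0. After p65 siRNA none of the 7 lay below the control on all 3 arrays. The median of the 7 genes was 0.20, 0.07 and -0.11 on the p65 siRNA arrays at 1, 3 and 6 h, and -0.37, -0.35 and -0.63 on the RPS3 siRNA arrays. Being below 0 on all 3 arrays held for 15.5% of all 7267 features after RPS3 siRNA and for 9.66% after p65 siRNA. Nothing is read from either share: the first contrast chose the members, and the p65 siRNA values enter the difference that also did. In RNA from whole cultures, fewer cells in G2 and M phase and less RNA of these genes per cell cannot be told apart.

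CCNB1, the cyclin of the pair, read 0.26, -0.01 and -0.34 on the p65 siRNA arrays at 1, 3 and 6 h. On the RPS3 siRNA arrays it read -0.51, -0.53 and -1.07. Every RPS3 siRNA array lay below every p65 siRNA array, and within each siRNA the 6 h array was the lowest. The RPS3 siRNA mean corresponds to 61.4% of the control level if the ratio is siRNA over control; were it the other way round, this and every other sign and percent would turn. In the direction used, the RPS3 probe lay below the control with its own siRNA, at -1.44 or lower. The p65 siRNA mean was -0.03 ± 0.31 and did not pass against 0 (limma adjusted p = 0.995). Matched by time, RPS3 siRNA minus p65 siRNA was -0.78, -0.52 and -0.73, a mean difference of -0.67 ± 0.14 on the log2 scale. Its 3 probes moved together: the differences averaged -0.61, -0.75 and -0.66 in the probes numbered 17059, 17060 and 24827.

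CDK1, the kinase partner, had the same sequence of signs at 1 and 6 h and lay above CCNB1 on every array. It read 0.31, 0.09 and -0.27 after p65 siRNA and -0.43, -0.35 and -0.94 after RPS3 siRNA. The groups did not overlap, although the p65 siRNA 6 h array came within 0.1 of the RPS3 siRNA 3 h array. The RPS3 siRNA mean was -0.57 ± 0.32, or 67.2% of the control, and the p65 siRNA mean was 0.04 ± 0.30 (limma adjusted p = 0.989). The time-matched difference was -0.75, -0.44 and -0.66, with a mean of -0.62 ± 0.16. Over the 4 probes of CDK1 the mean difference ran only from -0.63 to -0.60.

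PLK1 had a different course from the cyclin B1 pair. It was the lowest of the 7 genes at 1 h and 3 h after either siRNA and the highest of them at 6 h. Its ratios were -0.53, -0.36 and 0.22 after p65 siRNA and -1.03, -0.71 and -0.16 after RPS3 siRNA. The groups overlapped, because the RPS3 siRNA 6 h array lay above the p65 siRNA 1 h and 3 h arrays. The RPS3 siRNA mean was -0.63 ± 0.44 (64.6% of the control) and the p65 siRNA mean -0.23 ± 0.39 (limma adjusted p = 0.938). At each time the RPS3 siRNA array was still the lower, with differences of -0.49, -0.34 and -0.37 and a mean of -0.40 ± 0.08. With 1 array left out, so that times no longer match, the difference of the means ran from -0.18 (without the p65 siRNA 6 h array) to -0.64 (without the RPS3 siRNA 6 h array). It was -0.21 without the RPS3 siRNA 1 h array. The p65 siRNA mean ran from -0.45 without its 6 h array to -0.07 without its 1 h array.

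BUB1, the checkpoint kinase, had smaller ratios than CDK1, in a like sequence over the arrays. After p65 siRNA it read 0.18, 0.07 and -0.11, and after RPS3 siRNA -0.34, -0.24 and -0.63. The groups did not overlap, and 6 h was again lowest in both. The RPS3 siRNA mean was -0.40 ± 0.20 (75.7% of the control) and the p65 siRNA mean 0.05 ± 0.15 (limma adjusted p = 0.984). The time-matched difference averaged -0.45 ± 0.12. The p65 siRNA 3 h value rests on probe 28806, since probe 17313 was blank there.

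PBK was the gene with the highest p65 siRNA ratio of the 7 at 1 h and had the largest mean difference between the siRNAs. It read 0.39, 0.26 and -0.05 after p65 siRNA and -0.37, -0.37 and -0.82 after RPS3 siRNA. All RPS3 siRNA arrays lay below all p65 siRNA arrays. The RPS3 siRNA mean was -0.52 ± 0.26 (69.8% of the control), and the p65 siRNA mean of 0.20 ± 0.23 did not pass (limma adjusted p = 0.936). The time-matched difference was steady at -0.76, -0.63 and -0.77, averaging -0.72 ± 0.08. All 3 probes had the lower ratio with RPS3 siRNA at every time they were read.

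UBE2C, the enzyme through which cyclin B1 is destroyed, stayed near the control after p65 siRNA, with ratios of -0.03, -0.03 and 0.08. After RPS3 siRNA it read -0.32, -0.30 and -0.51, so the groups did not overlap. The RPS3 siRNA mean was -0.38 ± 0.11 (77.1% of the control), the p65 siRNA mean 0.01 ± 0.07 (limma adjusted p = 0.997) and the time-matched difference -0.38 ± 0.18. Its probes disagreed. Probe 37612 read -0.23 and -0.20 at 1 and 3 h after p65 siRNA and 0.05 and 0.05 after RPS3 siRNA, the opposite order, and was blank on both 6 h arrays. Without it, a choice made after its values were seen, the mean of the other two probes was nearly flat over time: 0.07, 0.05 and 0.08 after p65 siRNA and -0.51, -0.47 and -0.51 after RPS3 siRNA. The difference was then -0.56 ± 0.04, and the lower 6 h value above came with the blanks of that probe.

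NEK2, the centrosome kinase, went a different way from the other 6, and its values rest on a pair of probes that were both read on only 3 of the 6 arrays. Averaged, it read 0.20, 0.97 and -0.25 after p65 siRNA and 0.63, -0.17 and -0.63 after RPS3 siRNA. RPS3 siRNA was the lower at 3 and 6 h and the higher at 1 h, with differences of 0.42, -1.14 and -0.38. The means were 0.31 ± 0.62 after p65 siRNA (limma adjusted p = 0.938) and -0.06 ± 0.64 after RPS3 siRNA, which is 96.1% of the control.

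The high NEK2 values came from probe 30859, which read 0.26 and 0.97 at 1 and 3 h after p65 siRNA and 1.42 and -0.08 after RPS3 siRNA. It was blank on both 6 h arrays. Probe 17545 read 0.15 at 1 h and -0.25 at 6 h after p65 siRNA, was blank at 3 h, and read -0.17, -0.26 and -0.63 after RPS3 siRNA. On that probe alone the RPS3 siRNA array was the lower, with a difference of -0.32 at 1 h and -0.38 at 6 h, and all 3 RPS3 siRNA arrays lay below 0. Neither NEK2 probe had values on all 6 arrays, so NEK2 has no value where such probes alone are used.

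**Figure D2:**
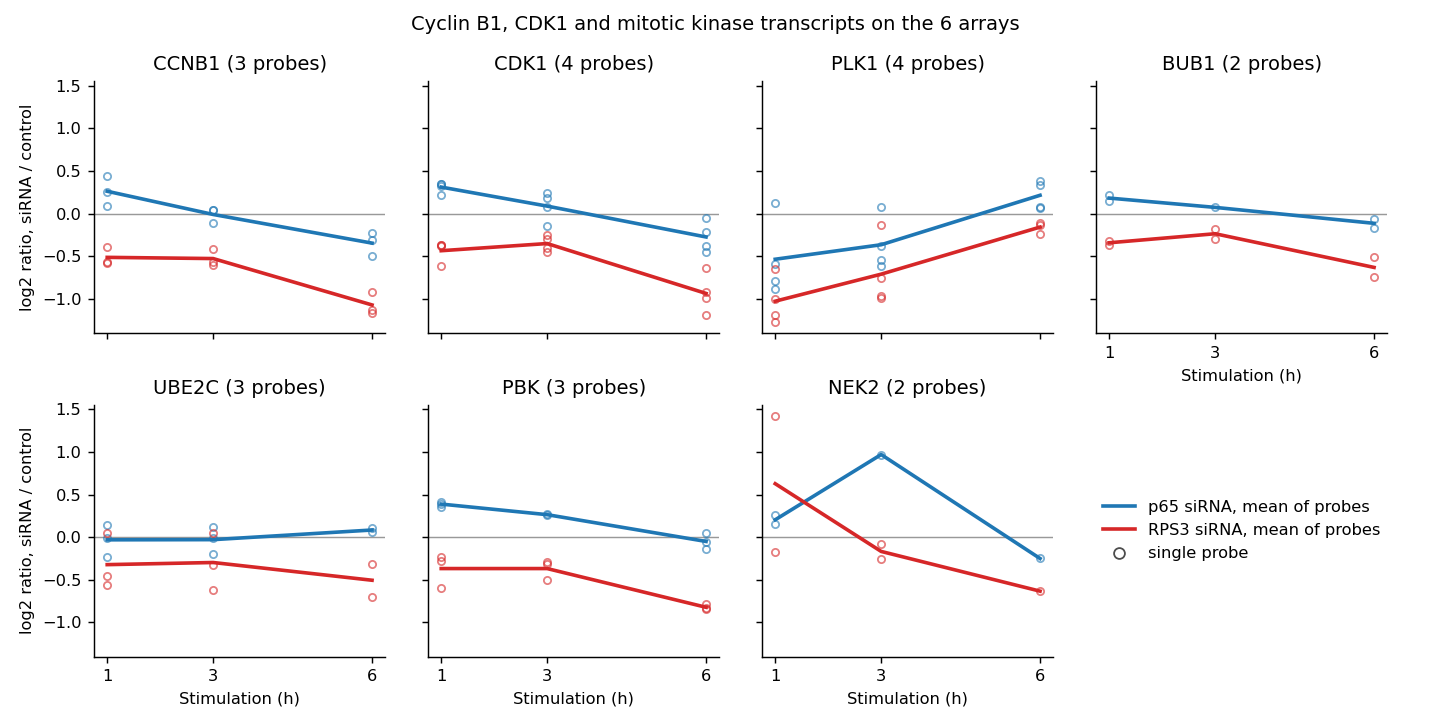
Log2 ratio of siRNA over control (vertical axis) against hours of stimulation for each of the 7 genes, with lines through the mean of its probes for p65 siRNA (blue) and RPS3 siRNA (red) and open circles for single probes. The red line runs below the blue one at every time in 6 genes; in NEK2 the lines cross, at 0.63 and 0.20 at 1 h.

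Between the siRNAs, 6 of the 7 genes were lower with RPS3 siRNA at all 3 times (all but NEK2), which held for 15.9% of all features. In 5 of the 7 (CCNB1, CDK1, BUB1, UBE2C and PBK) every RPS3 siRNA array lay below every p65 siRNA array, which held for 4.82% of features. These counts describe the choice of the genes and are not support for it. Across all features limma called 0% (0 of 7267) for RPS3 siRNA over control at an adjusted p under 0.05 (lowest 0.088; 636 features with an unadjusted p under 0.05). It also called 0% for the difference between the siRNAs (lowest 0.511; 185 unadjusted). For p65 siRNA over control it called 0% (lowest 0.587), and an unadjusted p under 0.05 held for 4.95% of features (360) and for 0 of the 7 genes. That count depends on the fit. With the time point as a block, the unadjusted limma p was 0.0476 for PLK1 (adjusted p = 0.482) and 0.0713 for PBK. Without both 6 h arrays it was 0.0202 for PLK1 and 0.0405 for PBK (limma adjusted p = 0.469 and 0.502). The other members had a higher p in both fits.

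The database IDs in the sample titles fall into separate number series, with the p65 siRNA 1 h and RPS3 siRNA 3 h arrays in one and the other 4 arrays in the other. Within the first series, RPS3 siRNA minus p65 siRNA was -0.79 for CCNB1, -0.66 for CDK1, -0.76 for PBK and -0.18 for PLK1, between arrays of different times. Within the second it was -0.61 for CCNB1, -0.59 for CDK1, -0.70 for PBK and -0.52 for PLK1. The sign was negative in both series for all 7 genes, and for PLK1 the size moved most.

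**Figure D3:**
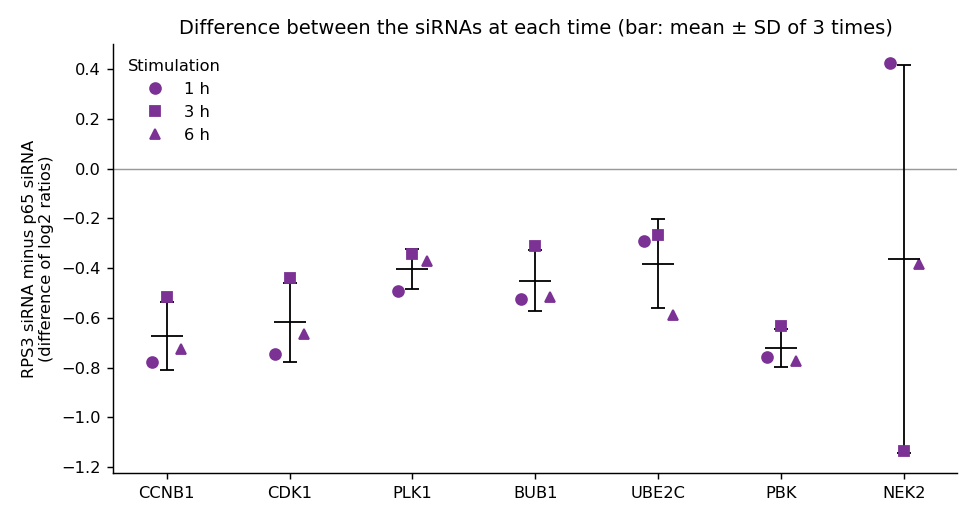
RPS3 siRNA minus p65 siRNA, as a difference of log2 ratios (vertical axis), at 1 h (circles), 3 h (squares) and 6 h (triangles) for each gene, with the mean and SD over the 3 times in black. PBK, CCNB1 and CDK1 lie lowest with means of -0.72, -0.67 and -0.62; the SD of NEK2, 0.78, is larger than its mean.

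Across the hours of stimulation, CCNB1, CDK1, BUB1 and PBK had lower ratios at 6 h than at 1 h after either siRNA, and PLK1 had higher ones. From 1 to 6 h CCNB1 changed by -0.61 after p65 siRNA and -0.56 after RPS3 siRNA, and CDK1 by -0.59 and -0.50. PBK changed by -0.44 and -0.45, and BUB1 by -0.30 and -0.29. PLK1 changed by 0.75 and 0.87. CCNB1, CDK1, BUB1 and PBK lay within 0.44 of each other on every array. The labels do not say whether both arrays of a time were read against the same control RNA, so the 2 siRNAs need not be independent views of a trend.

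None of these trends passed across all features. The slope per hour in limma, with both siRNAs in the fit, was -0.12 for CCNB1 (SE 0.033, adjusted p = 0.114) and -0.11 for CDK1 (SE 0.035, adjusted p = 0.13). It was 0.16 for PLK1 (SE 0.032, limma adjusted p = 0.0884) and -0.09 for PBK (SE 0.032, limma adjusted p = 0.153). BUB1 had a slope of -0.06 (limma adjusted p = 0.296), UBE2C of -0.01 (limma adjusted p = 0.912) and NEK2 of -0.18 (limma adjusted p = 0.184). An unadjusted limma p under 0.05 with a negative slope held for 4 of the 7 genes (CCNB1, CDK1, PBK and NEK2), against 9.19% of all features. With a positive slope it held for 1 of the 7 (PLK1), against 14.2%. Since slopes were known at the choice of the genes, these counts are descriptions and nothing is read from the shares. limma called 0% of the features after adjustment (lowest 0.0866; 1700 unadjusted).

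Single arrays moved these calls. Without the p65 siRNA 1 h array limma called 628 features, with PLK1 (slope 0.18, adjusted p = 0.037) and NEK2 (slope -0.29, adjusted p = 0.0252) among them. Without the p65 siRNA 3 h array it called 206, and PLK1 passed at an adjusted p of 0.0499. Without both 6 h arrays the slopes were -0.07 for CCNB1, -0.04 for CDK1 and 0.12 for PLK1 (limma adjusted p = 1 for each). NEK2 was averaged over different probes at different times, so its slope mixes probes.

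A lower ratio at 6 h than at 1 h was found in 5 of the 7 genes after p65 siRNA (CCNB1, CDK1, BUB1, PBK and NEK2), and in 50.6% of all features. After RPS3 siRNA it was found in 6 of the 7 (all but PLK1), and in 50% of features. These counts too come from values known when the genes were chosen. The median of 9 T-cell marker genes (CD3D, LCK and the like, 9 of 9 measured) went from 0.02 at 1 h to 0.36 at 6 h after p65 siRNA and from -0.09 to 0.61 after RPS3 siRNA. Their part in the time trend was not tested. The 10 of 17 measured markers of other lineages had medians of 0.04 and -0.06 at 1 and 6 h after p65 siRNA, and of 0.10 and -0.05 after RPS3 siRNA. Ratios carry no level, so neither list can check which cells were present.

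The higher 6 h ratios of PLK1 came from 3 of its 4 probes. Probes 17919, 27496 and 27820 changed from 1 to 6 h by 1.18, 1.21 and 0.67 after p65 siRNA and by 1.14, 1.09 and 0.77 after RPS3 siRNA. Probe 24776 read 0.13, 0.07 and 0.06 after p65 siRNA, nearly level, and -0.65 and -0.13 at 1 and 3 h after RPS3 siRNA, with a blank at 6 h. Averaged without that probe, a choice made after seeing it, PLK1 differed between the siRNAs by -0.40, -0.39 and -0.42 at the 3 times. In CDK1, probe 30657 changed by only -0.02 from 1 to 6 h after RPS3 siRNA, whereas the other 3 probes changed by -0.82 to -0.55.

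**Figure D4:**
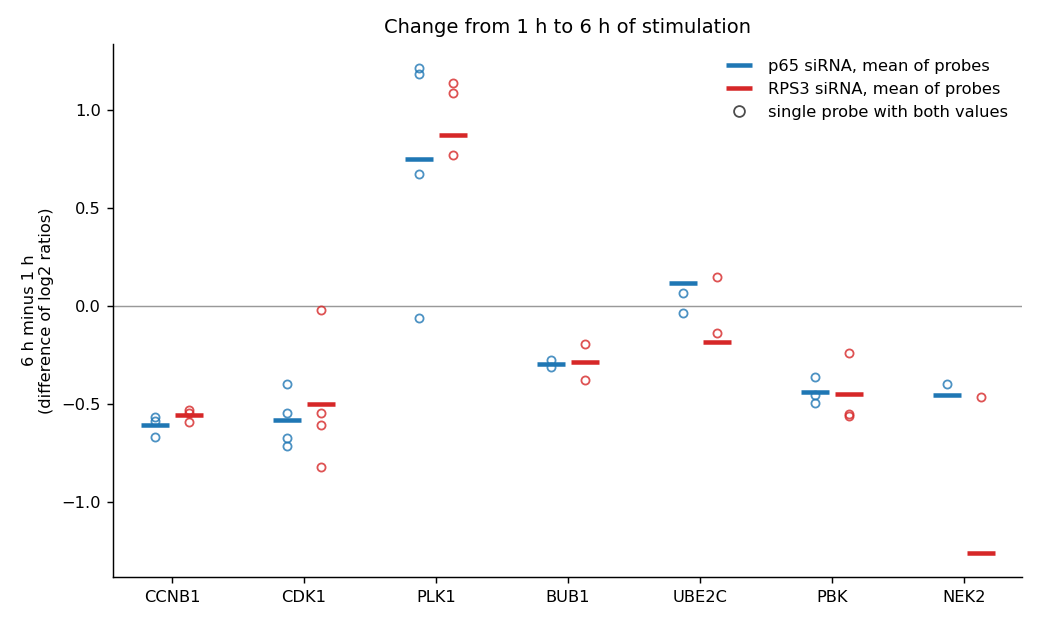
Change of the log2 ratio from 1 to 6 h of stimulation (vertical axis) after p65 siRNA (blue) and RPS3 siRNA (red) for each gene; bars are the mean of probes and open circles single probes read at both times. PLK1 lies above 0 after either siRNA (0.75 and 0.87), and CCNB1, CDK1, BUB1 and PBK lie below; the NEK2 bar at -1.26 has no probe circle near it because the probes averaged differ between the times.

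The wider pathway was described with 6 gene lists, by their counts and medians beside those of all 7267 features, whose median was 0.01 after RPS3 siRNA with 47.1% below 0. Of all features 45.3% lay below 0 after p65 siRNA, and 50.8% for RPS3 siRNA minus p65 siRNA. No gene of any list passed an adjusted p under 0.05 in limma in any of the 4 contrasts. The list closest in level to the 7 genes was that of CDK1 substrates and other G2 and M genes. There, 15 of 16 tested members lay below 0 after RPS3 siRNA, 13 of them on all 3 arrays, with a median of -0.49. DEPDC1, a gene of mitotic progression (-0.86 ± 0.17), and the kinetochore motor CENPE (-0.84 ± 0.22) were lowest. The nuclear lamina gene LMNB1 (-0.08 ± 0.10) and the condensin gene SMC2 (0.19 ± 0.29) were highest. This list also lay low after p65 siRNA, with a median of -0.15 and 14 of 16 below 0, and its difference between the siRNAs had a median of -0.26. The p65 siRNA median was -0.30 without the 1 h array and -0.10 without the 3 h array. The 7 genes had medians of 0.04 after p65 siRNA and -0.45 for that difference.

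Partners and regulators of CDK1 lay nearer to the control. After RPS3 siRNA 15 of 21 were below 0, with a median of -0.11. CKS2, the small subunit that binds CDK1, was lowest at -0.38 ± 0.25, and read 0.38, 0.12 and -0.09 after p65 siRNA and -0.20, -0.28 and -0.66 after RPS3 siRNA. CDKN1A, the CDK inhibitor p21, had a close mean, -0.37 ± 0.40, but higher ratios at 6 h than before: -0.54, -0.25 and 0.45 after p65 siRNA and -0.70, -0.48 and 0.07 after RPS3 siRNA. Its slope of 0.18 per hour was near that of PLK1 (limma adjusted p = 0.0866). The checkpoint kinase CHEK2 (0.12 ± 0.18) and CCNH, the cyclin of the CDK-activating kinase (0.12 ± 0.14), were highest.

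Among other mitotic kinases and their partners, 14 of 17 tested genes lay below 0 after RPS3 siRNA, with a median of -0.21, and 15 of 17 had the lower mean with RPS3 siRNA than with p65 siRNA. The median of that difference was -0.26, and -0.12 without the p65 siRNA 1 h array or -0.10 without the p65 siRNA 6 h array. MELK, a kinase of dividing cells, was lowest (-0.46 ± 0.20), followed by BIRC5, which encodes survivin of the Aurora B complex (-0.42 ± 0.60). BIRC5 read -0.27 at 1 h and 0.57 at 6 h after p65 siRNA and -0.87 and 0.26 after RPS3 siRNA, with a slope of 0.21 per hour (limma adjusted p = 0.112). NEK6 (0.04 ± 0.20) and the checkpoint gene MAD1L1 (0.11 ± 0.42) were highest. Of the 17, 5 had a negative and 5 a positive slope at an unadjusted limma p under 0.05, against the 9.19% and 14.2% of all features given above.

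For the anaphase-promoting complex and its substrates, 8 of 25 listed genes were on the arrays, and 6 of these lay below 0 after RPS3 siRNA (median -0.14, or -0.03 without the 1 h array). GMNN, a replication inhibitor destroyed by the complex, read -0.29 ± 0.31, and CDC20, its mitotic activator, -0.21 ± 0.24. The subunits CDC16 (0.06 ± 0.07) and ANAPC7 (0.11 ± 0.16) were highest. Among 14 transcription factors of G2 and M genes the median was -0.05, with 8 below 0. FOXM1, an activator of these genes, was lowest at -0.38 ± 0.40 and read -0.77, -0.42 and 0.03 at 1, 3 and 6 h after RPS3 siRNA. RBL2, the pocket protein of DREAM, followed at -0.25 ± 0.23. RBBP4, another DREAM subunit (0.21 ± 0.38), and E2F5 (0.23 ± 0.19) were highest.

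The S phase and replication genes had a median of -0.06 after RPS3 siRNA, with 11 of 17 below 0, and of 0.08 after p65 siRNA, with 0 of 17 below 0. The flap endonuclease FEN1 (-0.46 ± 0.29) and thymidine kinase TK1 (-0.42 ± 0.41) were lowest, and CCNE1 (0.21 ± 0.39) and the helicase subunit MCM7 (0.29 ± 0.55) were highest. These 4 had a positive slope, from 0.11 to 0.17 per hour (limma adjusted p from 0.111 to 0.142). The list itself was mixed: of the 17, 11 had a positive slope and 6 a negative one, the sign of CCNB1 and CDK1. At an unadjusted limma p under 0.05, 4 slopes were negative and 7 positive, against 9.19% and 14.2% of all features.

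**Figure D5:**
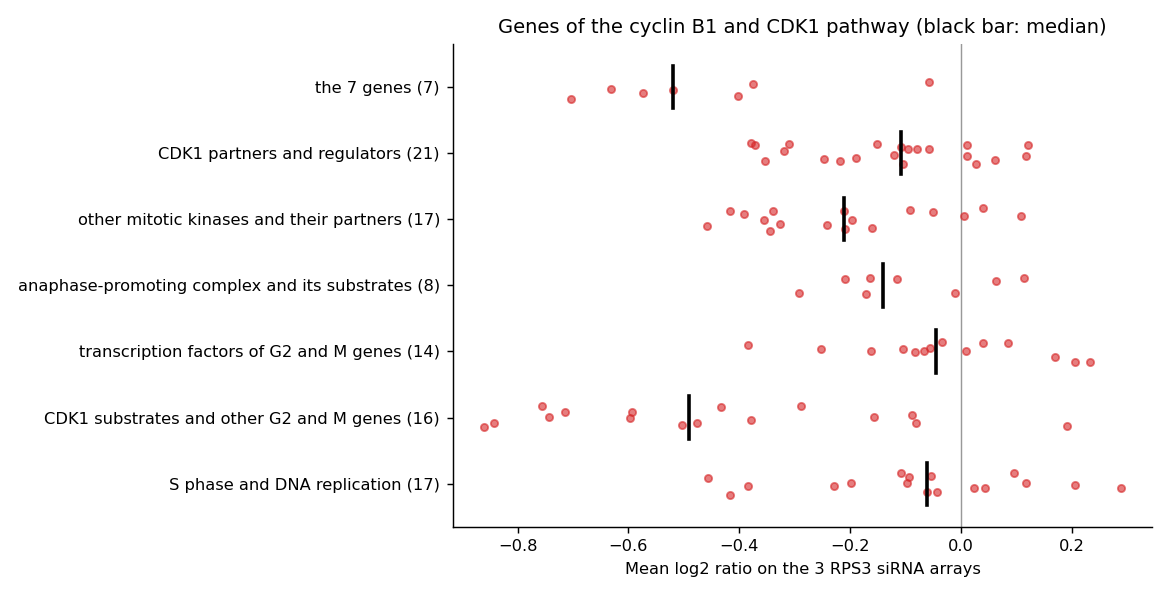
Mean log2 ratio on the 3 RPS3 siRNA arrays (horizontal axis) for each tested gene of the 7 members and the 6 pathway lists, with the number of genes in brackets, 1 point per gene and the list median as a black bar. The 7 genes and the CDK1 substrates lie lowest, with medians of -0.52 and -0.49; transcription factors and S phase genes lie around 0, with medians of -0.05 and -0.06.

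The genes with the course most like the average of the 7, by Pearson r over the 6 arrays among 3925 other named genes, were MELK (0.991), RPS12 (0.988), ID1 (0.985), SPARC (0.977), DUSP2 (0.976), CD9 (0.969), CAPN12 (0.964), SELENOT (0.963), CKS2 (0.955) and RPS16 (0.952). Arrays of a time may share control RNA and 6 points are few, so these values order genes and carry no test. MELK also matched in level: it read 0.22, 0.12 and -0.11 after p65 siRNA and -0.30, -0.39 and -0.68 after RPS3 siRNA. Its root mean square distance to the average, 0.046, was the smallest of the 3925 genes. The ribosomal protein gene RPS12 had the same course at a higher level, with 0.29, 0.35 and 0.14 after p65 siRNA and -0.03, 0.02 and -0.29 after RPS3 siRNA. CKS2 and MELK were the members of the pathway lists among the 10. With the average taken without NEK2, an alternative added after its probes were seen to disagree, 5 of the 10 genes stayed. CKS2 was not among those that stayed, and MELK moved to rank 4 (0.966). SELENOT (0.983) and RPS16 (0.976) then led.

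The targets of the siRNAs bear on every value above. With RPS3 siRNA, the single RPS3 probe lay at -2.50 after 1 h, -2.53 after 3 h and -1.44 after 6 h; with p65 siRNA it lay at 0.11, 0.01 and 1.11. RELA, which encodes p65, read -0.41, -0.46 and -0.59 on the p65 siRNA arrays and -0.39, -0.69 and -0.54 on the RPS3 siRNA arrays, so it lay below 0 with either siRNA and was the lower with its own at 1 and 6 h but not at 3 h. Between 5.4% and 15.1% of the probes of an array were blank, with the most on the 6 h arrays (14.8% after p65 siRNA and 15.1% after RPS3 siRNA). The SD of the log2 ratios over all probes was 0.287 and 0.255 on the arrays of the first ID series. It was 0.372 to 0.513 on those of the second. The part of blanks or of this spread in the slopes was not tested.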

How the data were processed

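RNA of Jurkat cells was compared on 6 2-colour arrays, 3 per siRNA. The authors deposited 1 log ratio per probe and array, read here as log2: the log base is not given in the sources used here, and if it was a natural log every size would be larger on the log2 scale. Scanner, background correction, normalization and the rule for blanks were likewise not given in the sources used here. As to direction, siRNA over control is likely rather than settled. Channel intensities were not used here, so only the number of arrays shows the precision.

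The median of each array was subtracted, and the probes of a symbol were then averaged per array, blanks left out. Of 15246 probes, 10169 had 1 symbol. The 7267 features with values on all 6 arrays entered lmFit and eBayes of limma 3.58.1 (R 4.3.3), with Benjamini-Hochberg adjustment over all of them. The fits were the mean of each siRNA against 0, the difference, and the slope per hour with siRNA in the fit. The 3 times stand as the replicates of a siRNA. A test against 0 leaves out the spread of the control, and it keeps any dye effect. Nothing says that arrays came from separate cultures or that controls differed between siRNAs. The p-values thus reflect spread between arrays alone, and some or all of it may be technical. For the siRNA means and their difference, which were fitted without time, this spread also holds any change over the 3 times. Blocking on time took the SE of the p65 siRNA mean from 0.196 to 0.092 for PLK1, and from 0.104 to 0.099 for UBE2C. The script was tested on simulated data.

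The members, lists, named genes and tests were chosen with earlier results of these data known, slopes included. Values are named for all members and their probes, for the 2 highest and 2 lowest genes of each list after RPS3 siRNA, for the 10 genes most like the average, and for RPS3 and RELA. Alternatives covered centring, quantile normalization, probe averaging, blanks, the time point as a block, the ID series, a robust prior and left-out arrays. Promoters came from RefSeq (GRCh38.p14).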

Additional observations from a re-analysis of the deposited data

Results flagged for a closer look

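DUSP2, RPS16 and SELENOT, named for their likeness to the 7 genes, had every p65 siRNA array above 0 and every RPS3 siRNA array below 0. The share of all features with this pattern was not counted. The wider pattern, every RPS3 siRNA array below every p65 siRNA array, held for 4.82% of features. For DUSP2 the signs rest on values near 0: 0.03 at 6 h after p65 siRNA, and -0.025 and -0.005 at 1 and 3 h after RPS3 siRNA. DUSP2, a MAP kinase phosphatase, averaged 0.12 and -0.08, a difference of -0.20. The ribosomal protein gene RPS16 averaged 0.28 and -0.17, a difference of -0.45, and the selenoprotein gene SELENOT 0.23 and -0.17, a difference of -0.40. The limma adjusted p of each difference was 1, and likeness to the members favours such a pattern. No single array was examined for standing apart within a group, since each group had 3 arrays.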

How the results depend on the processing

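Of the values of single genes and lists, 726 kept their direction and call or moved within the spread between arrays, and 22 moved further. Another 15, all of single genes, changed sign, and 3 came to pass. List medians that crossed 0 were counted in the 726. After p65 siRNA, CDK1 partners and regulators went from -0.010 to 0.034 without the 3 h array. Other mitotic kinases went from 0.029 to -0.056 without the 6 h array. The p65 siRNA median of the 7 genes, counted apart, went from 0.043 to -0.019 without the 1 h array. Part of the 726 was fixed in advance, so that count does not measure robustness. The time block and the robust prior leave the siRNA means of a gene unchanged. Leaving out an array of either siRNA leaves the mean of the other unchanged. The causes were not tested. The labels pair the arrays by time, not by replicate number, and the fit with the time point as a block is the paired analysis. Features called after RPS3 siRNA were 2 with quantile normalization, 7 with single probes, 3 with the time block, 2 without both 6 h arrays and 0 to 2 with 1 array left out. For the difference they were 1 with quantile normalization and 2 with the time block (which called none of the 7 genes after p65 siRNA), and for the slope 1 with quantile normalization and 0 to 628 with 1 array left out. The median difference of the 7 genes was -0.59 with probes read on all 6 arrays, where NEK2 drops out, and -0.69 to -0.43 with 1 array left out, when times are no longer matched. Their median slope was -0.007 without both 6 h arrays. Of the 10 most similar genes, 4 stayed by root mean square distance, 5 without NEK2 in the average and 4 to 7 with 1 array left out. Values near 0 changed sign, and so did the p65 siRNA mean of NEK2, which went from 0.31 to -0.023 without the p65 siRNA 3 h array. After p65 siRNA, CCNB1 was 0.002 with quantile normalization, 0.029 with ID series as a covariate and 0.13 without both 6 h arrays, and UBE2C was -0.03 without both 6 h arrays. With 1 array left out the p65 siRNA means ran from -0.18 to 0.13 for CCNB1, -0.091 to 0.20 for CDK1, -0.019 to 0.13 for BUB1, -0.030 to 0.027 for UBE2C, 0.11 to 0.33 for PBK and -0.023 to 0.59 for NEK2. NEK2 after RPS3 siRNA was 0.23 without both 6 h arrays and ran from -0.40 to 0.23 with 1 array left out. The UBE2C slope was 0.003 with the median of probes, 0.001 with probes read on all 6 arrays, 0.006 without both 6 h arrays and -0.034 to 0.022 with 1 array left out.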
